A study of Mus musculus with 9 samples.

Results

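The heat shock chaperones described here are 10 genes chosen by symbol: Hspa1a, Hspa1b, Hspa8, Hsph1, Dnajb1, Bag3, Hsp90aa1, Hsp90ab1, Hspd1 and Hspe1. All 10 were among the 13593 genes of the deposited count table, and all 10 passed the filter on low counts that left 12915 genes to be tested. They were measured by RNA-seq in bone marrow-derived macrophages, grown for 7 days from the marrow of wild-type C57BL/6 mice aged 6 weeks in medium with 15% supernatant of L929 cells, a fibroblast line whose secreted growth factors turn marrow precursors into macrophages. The 3 groups of 3 libraries received the chemokine CCL26, the chemokine CX3CL1 or bovine serum albumin (BSA, the protein control), at a dose of 4 nM over 4 h. Per the series title CX3CL1 and CCL26 both bind the receptor CX3CR1, so each is set against BSA and CCL26 is set against CX3CL1. The labels do not say that libraries of a group came from separate animals or cultures, so a p-value here reflects library-to-library spread that may be technical.

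Heat shock chaperones bind unfolded stretches of other proteins and, fuelled by ATP in most families, help them fold, reach their compartment or be degraded. HSP70 proteins work in cycles that J-domain partners start and nucleotide exchange factors end, and they hand many clients on to HSP90, which holds kinases and receptors in a form ready for activation. In mammals the stress-inducible members are switched on by heat shock factor 1 (HSF1), which binds inverted repeats of the short unit GAA in their promoters. Other members are made at high levels in unstressed cells.

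Macrophages given CCL26 had 3.0-fold the level of the stress-inducible HSP70 mRNAs Hspa1a and Hspa1b, counted together, of macrophages given BSA. Both genes rose, and they were the 2 of 10 chaperone genes that passed the test as higher with all 9 libraries in 1 fit, where 0.387% of all tested genes did (quasi-likelihood test of edgeR, p adjusted by Benjamini-Hochberg and called under 0.05). None of the other 8 passed, and 0.0465% of all tested genes were called lower. Each of these 8 had a negative log2 fold change. When CX3CL1 replicate 1 was left out of the fit, Hspa8, Hsp90aa1, Hsp90ab1 and Bag3 fell with CCL26, 4 of 10 against 9.26% of all tested genes, while the same 2 genes rose, against 9.74%. With CX3CL1, none of the 10 passed against BSA with all 9 libraries (edgeR; 1 had an unadjusted p under 0.05), while Hspa8 and Hsp90aa1 fell without CX3CL1 replicate 1, 2 of 10 against 0.31% of all tested genes.

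CX3CL1 replicate 1 stood apart from the other 8 libraries. In it 1193 genes had no count, compared with 80 to 170 elsewhere, and its scaling factor was 0.849 where the others had 0.999 to 1.05. Total counts ran from 16923982 to 23198324 per library. The main tests below are therefore given with this library and without it. It also enters the comparison of CCL26 with BSA, because all libraries share 1 estimate of the spread. The cells carried all 10 macrophage markers listed, among them Adgre1, Csf1r and Cd68, with summed levels of 24395 to 24854 CPM with CCL26, 28187 to 42861 CPM with CX3CL1 and 30006 to 30558 CPM with BSA. Of 10 granulocyte precursor markers, 9 were in the table, summing to 79.4 to 84.3 CPM, 70.3 to 183 CPM and 64.8 to 70.3 CPM in the same order of groups, and 2 of 4 B cell markers summed to 17.3 to 21.03 CPM, 21.9 to 70.9 CPM and 23.2 to 25.5 CPM. Of the markers of stromal and of dendritic cells, 4 of 6 each were in the table, and in each library they summed to at most 2.58 CPM and 10.2 CPM; 0 of 5 T and NK cell markers and 0 of 6 erythroid markers were in it. Genes whose symbol starts with mt- made up 0.0547% to 0.0626% of counts with CCL26, 0.0772% to 0.112% with CX3CL1 and 0.0872% to 0.0898% with BSA. Mitochondrial genes under other symbols, or absent from the table, do not enter this share. The CCL26 libraries lay apart from the BSA libraries in the macrophage, granulocyte precursor and B cell sums and in the mt- share. The stromal and dendritic cell sums overlapped between the groups. The part of any of these values in the chaperone results below was not tested. In bulk RNA, fewer cells of a type and less RNA per cell cannot be told apart.

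The 10 genes spanned a wide range of abundance. Levels are given in CPM, counts scaled to library size with TMM factors (trimmed mean of M-values), and to compare genes also in CPM per kb of exon. In macrophages given BSA, the constitutive HSP90 gene Hsp90ab1 was the most abundant of the 10, with 681 ± 3.96 CPM per kb (SD, n = 3 libraries). Hspa8, which encodes the constitutive cytosolic HSP70 known as HSC70, followed at 617 ± 10.1 CPM per kb. The order continued with Hsp90aa1 at 307 CPM per kb, Hspd1 at 148, Hspe1 at 59.4, Bag3 at 23.8, Dnajb1 at 15.3, Hsph1 at 8.59, Hspa1b at 6.17 and Hspa1a at 3.70 CPM per kb. No 2 neighbours in this order overlapped between their BSA libraries. The inducible HSP70 genes were thus the least abundant of the 10 under BSA.

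With CCL26 the order at the low end was different. Hspa1b had 17.6 ± 1.43 CPM per kb and lay beside Bag3 at 17.4 ± 1.66 CPM per kb, with overlapping libraries. Hspa1a had 12.0 ± 2.49 CPM per kb, which overlapped Dnajb1 at 13.5 ± 0.411 CPM per kb, and Hsph1 was the lowest of the 10 at 8.02 ± 0.0531 CPM per kb. The 5 most abundant genes kept their places. With CX3CL1, Hspa8 and Hsp90ab1 overlapped each other, at 540.4 to 982 and 629 to 805 CPM per kb, and Hspa1b and Hspa1a were again the lowest, at 5.18 ± 1.72 and 4.20 ± 1.38 CPM per kb.

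**Figure D1:**
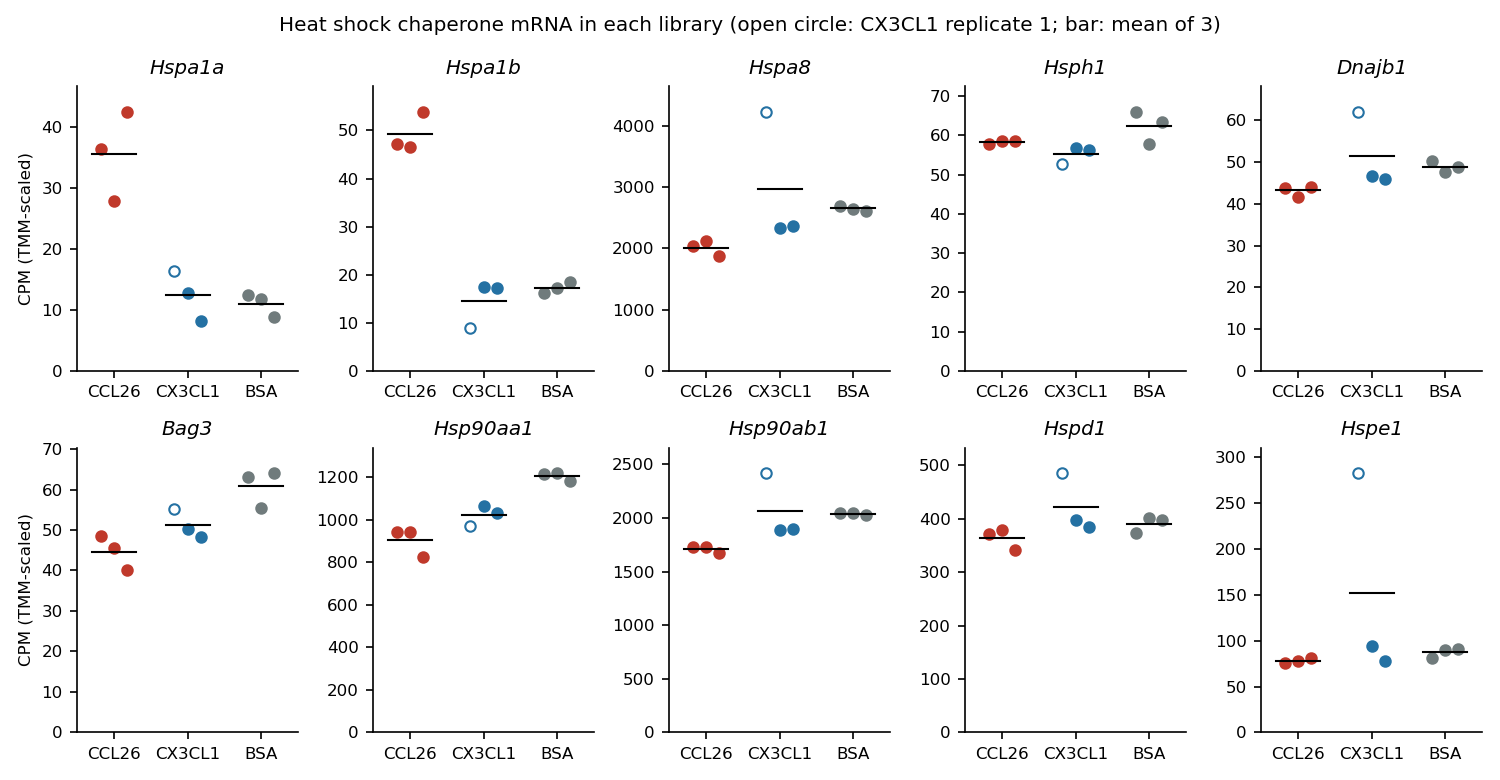
Level of each of the 10 heat shock chaperone genes (TMM-scaled CPM, linear axis from 0) in the CCL26, CX3CL1 and BSA libraries; points are libraries, replicates 1 to 3 from left to right, bars are means of 3 and the open circle is CX3CL1 replicate 1. Hspa1a and Hspa1b are the panels in which all 3 CCL26 libraries lie above all others, between 27.8 and 42.5 CPM and between 46.6 and 53.9 CPM.

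Hspa1a and Hspa1b encode near-identical inducible HSP70 proteins and lie close together on chromosome 17, both on the minus strand (GRCm38, GENCODE M21 annotation). Hspa1a spans chr17:34969190-34972156 and Hspa1b spans chr17:34956436-34959238. Of the 100-base stretches of Hspa1a exons, 56.5% also occur in other genes, and 47.1% in Hspa1b. Of those of Hspa1b, 49.9% also occur in other genes, all of them in Hspa1a. Reads from these can be divided between the genes that share them or left out of the counts. The sum of the pair is therefore given as well, but it would not bring back reads that were left out or counted for other genes. Hspa1a also overlaps Gm20481 on the other strand. The labels and processing notes say neither how reads that match both copies were counted nor whether counting used strand.

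Hspa1a had 36.5, 27.8 and 42.5 CPM in the CCL26 libraries (replicates 1 to 3, as in every such list), 16.4, 12.7 and 8.24 CPM in the CX3CL1 libraries and 12.4, 11.7 and 8.83 CPM in the BSA libraries. Hspa1b had 47.3, 46.6 and 53.9 CPM with CCL26, 8.94, 17.4 and 17.2 CPM with CX3CL1 and 16.2, 17.2 and 18.5 CPM with BSA. Every CCL26 library was above every other library for both genes, while the CX3CL1 and BSA libraries overlapped. Against BSA, Hspa1a rose with CCL26 by 1.69 on the log2 scale (SE 0.276, 3 libraries in each group, edgeR adjusted p = 0.0435) and Hspa1b by 1.51 (SE 0.238, edgeR adjusted p = 0.0408). Each call was close to the threshold with all 9 libraries, and 7 of the 9 single leave-outs ended it for either gene. The edgeR adjusted p of Hspa1a was then 0.213, 0.279 and 0.298 without BSA replicates 1 to 3, 0.0835 without CX3CL1 replicate 2, and 0.231, 0.125 and 0.240 without CCL26 replicates 1 to 3. For Hspa1b it was 0.248, 0.286 and 0.274 without BSA replicates 1 to 3, 0.0579 without CX3CL1 replicate 2, and 0.211, 0.179 and 0.228 without CCL26 replicates 1 to 3. Without CX3CL1 replicate 1 the edgeR adjusted p was 1.79e-08 for Hspa1a and 1.79e-11 for Hspa1b, at log2 fold changes of 1.69 and 1.51.

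Summed within each library, the pair had 83.7, 74.5 and 96.4 CPM with CCL26, 25.4, 30.2 and 25.4 CPM with CX3CL1 and 28.6, 29.0 and 27.3 CPM with BSA. The CCL26 libraries were again above all others. The sum rose with CCL26 by 1.58 on the log2 scale against BSA (SE 0.141, edgeR adjusted p = 0.00203). It kept its call in all 9 fits that left out 1 library, with log2 fold changes of 1.48 to 1.67 and adjusted p from 2.37e-12 to 0.0384. Against CX3CL1 the sum was higher with CCL26 by 1.65 (SE 0.141, edgeR adjusted p = 0.00213), and by 1.62 (SE 0.106, adjusted p = 4.41e-11) without CX3CL1 replicate 1. CX3CL1 against BSA gave -0.07 (SE 0.139, edgeR adjusted p = 0.824), a difference smaller than its standard error.

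The split between the copies was similar in most libraries. Hspa1a made up 43.6%, 37.4% and 44.1% of the pair's counts with CCL26 and 43.4%, 40.5% and 32.4% with BSA, and the groups overlapped. With CX3CL1 the shares were 64.8% (95% exact binomial interval 59.7% to 69.5%), 42.2% and 32.4%. The first of these is CX3CL1 replicate 1, where Hspa1b was at 0.305 of its mean in the other 8 libraries. Binomial intervals cover counting error only.

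The sequences just upstream of both genes are shown because these genes moved together and because the promoters differ at so few bases. RefSeq promoter windows (GRCm38.p6) give 250 bases before each transcript start, and the capitals mark the inverted GAA pair GAANNTTC, the smallest form of the heat shock element, whose reverse complement is the same motif. The Hspa1a stretch is chr17:34972157-34972406 and the Hspa1b stretch is chr17:34959239-34959488, both read 5′ to 3′ on the minus strand.
Hspa1a: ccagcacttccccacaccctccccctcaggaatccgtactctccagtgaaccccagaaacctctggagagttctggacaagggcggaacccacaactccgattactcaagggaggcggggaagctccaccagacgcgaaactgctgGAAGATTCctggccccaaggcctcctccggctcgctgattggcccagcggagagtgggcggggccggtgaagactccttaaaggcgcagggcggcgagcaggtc
Hspa1b: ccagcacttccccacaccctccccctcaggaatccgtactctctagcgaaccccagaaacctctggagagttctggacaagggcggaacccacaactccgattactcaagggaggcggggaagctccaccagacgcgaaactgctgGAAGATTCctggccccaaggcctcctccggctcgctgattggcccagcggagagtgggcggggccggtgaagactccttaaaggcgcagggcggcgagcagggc
The 250 bases are 98.8% identical. The 3 differences are C44T, T47C and T249G, with positions counted from 1 at the first printed base and the base of Hspa1a given first. Both stretches hold 1 GAANNTTC pair, starting 104 bases before the transcript start, and 1 CCAAT box 67 bases before it, read on the other strand. Over all 32851 promoter windows of 300 bases, 7.86% hold GAANNTTC and 37.4% hold CCAAT on either strand.

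The constitutive HSP70 gene Hspa8 had lower values with CCL26. It had 2033, 2117 and 1867 CPM with CCL26, 4225, 2324 and 2359 CPM with CX3CL1 and 2697, 2649 and 2611 CPM with BSA. All CCL26 libraries were below all others, and CX3CL1 replicate 1 was above all others at 1.81 times their mean. The log2 fold change of CCL26 against BSA was -0.40 both with all 9 libraries (SE 0.215, edgeR adjusted p = 0.933) and without CX3CL1 replicate 1 (SE 0.0325, adjusted p = 1.22e-09), and the second passed the test. Hspa8 shares 28.5% of its 100-base exon stretches with other genes, mostly the pseudogene Gm15459, and holds the small nucleolar RNA genes Snord14c, Snord14d and Snord14e within it.

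The 3 cytosolic HSP70 genes made up a different mixture with CCL26, while the CX3CL1 and BSA libraries overlapped. Hspa1a and Hspa1b together were 5.81%, 5.02% and 7.17% of the summed HSP70 level (CPM per kb) with CCL26, 0.880%, 1.91% and 1.60% with CX3CL1 and 1.56%, 1.61% and 1.55% with BSA. The summed level itself was 502, 518 and 468 CPM per kb with CCL26, 991, 551 and 557 CPM per kb with CX3CL1 and 637, 626 and 617 CPM per kb with BSA. The inducible share was thus highest, and the HSP70 sum lowest, in the CCL26 libraries, and neither overlapped another group. Hspa8 carried most of the sum in every library, so the sum followed it. The size of the share depends on how reads from stretches shared between genes were counted, which is not known here.

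**Figure D2:**
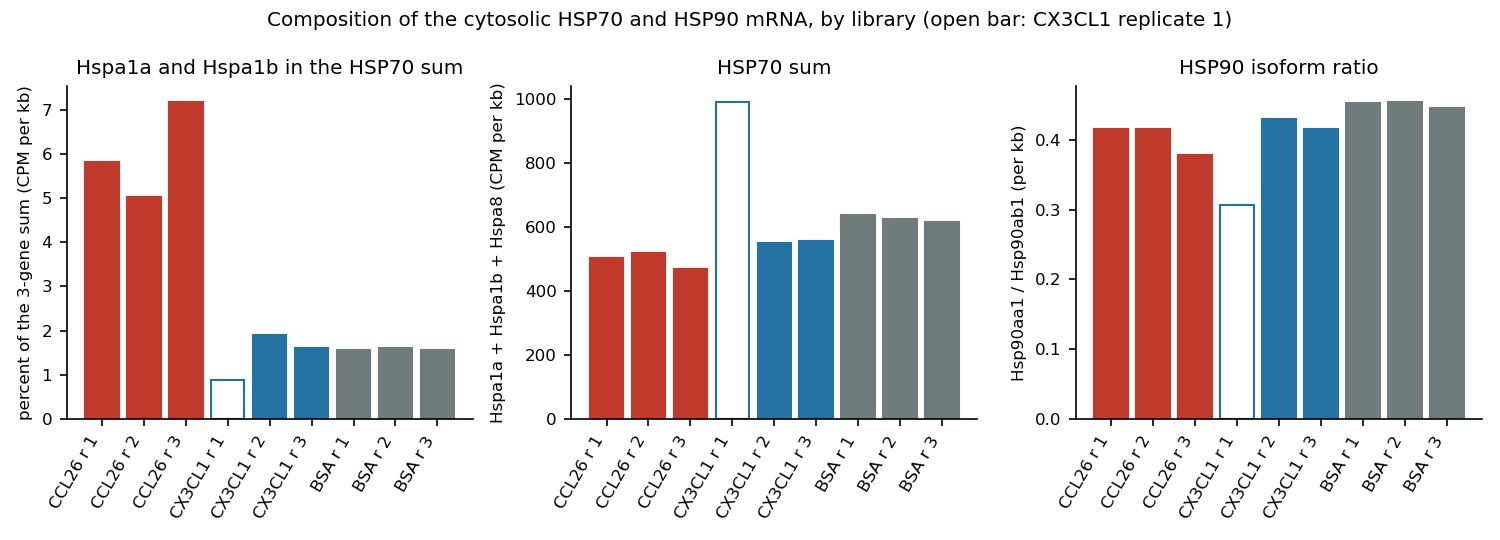
Share of Hspa1a and Hspa1b in the sum of the 3 cytosolic HSP70 genes (percent, CPM per kb), that sum (CPM per kb) and the ratio of Hsp90aa1 to Hsp90ab1 (per kb) in each of the 9 libraries, with axes from 0; r is the replicate number and the open bar is CX3CL1 replicate 1. The share is 5.02% to 7.17% in the CCL26 libraries and at most 1.91% in all others.

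Of the HSP70 partners Hsph1, Dnajb1 and Bag3, none passed the test as higher. Hsph1 encodes the large HSP110 chaperone that exchanges nucleotide on HSP70, and it had 57.8, 58.5 and 58.5 CPM with CCL26, 52.8, 56.8 and 56.3 CPM with CX3CL1 and 66.0, 57.7 and 63.5 CPM with BSA. The CCL26 libraries lay within the range of the BSA libraries, and the CX3CL1 libraries were below both groups. Its log2 fold change with CCL26 against BSA was -0.10 (SE 0.109, edgeR adjusted p = 0.99996), and Hsph1 passed the test in no comparison, with or without CX3CL1 replicate 1.

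Dnajb1 encodes the J-domain protein HSP40, which stimulates the ATPase of HSP70. It had 43.9, 41.7 and 44.1 CPM with CCL26, 62.0, 46.6 and 45.9 CPM with CX3CL1 and 50.3, 47.5 and 48.9 CPM with BSA. The CCL26 libraries were below all others, but the change against BSA of -0.18 (SE 0.141) did not pass (edgeR adjusted p = 0.99996, and 0.108 without CX3CL1 replicate 1).

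Bag3 encodes an exchange factor that links HSP70 to small heat shock proteins and to selective autophagy. It had 48.5, 45.5 and 40.1 CPM with CCL26, 55.2, 50.2 and 48.3 CPM with CX3CL1 and 63.2, 55.4 and 64.0 CPM with BSA. Both chemokine groups lay below the BSA group and overlapped each other. Against BSA, the log2 fold change of Bag3 with CCL26 was -0.45 (SE 0.128, edgeR adjusted p = 0.40) with all 9 libraries and -0.44 (SE 0.0812, adjusted p = 0.000281) without CX3CL1 replicate 1, and the second passed. With CX3CL1 it was -0.25 (SE 0.128, edgeR adjusted p = 0.711) and, without that library, -0.31 (SE 0.0909, adjusted p = 0.239). Bag3 overlaps 2610306O10Rik on its own strand.

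HSP90 has an inducible and a constitutive cytosolic form, and both had lower values with CCL26. Hsp90aa1, the inducible form, had 943, 944 and 827 CPM with CCL26, 970.2, 1065 and 1034 CPM with CX3CL1 and 1215, 1219 and 1184 CPM with BSA. The 3 groups did not overlap, with CCL26 lowest and BSA highest. Its log2 fold change with CCL26 against BSA was -0.41 (SE 0.10, edgeR adjusted p = 0.236), and -0.41 (SE 0.0389, adjusted p = 1.79e-08) without CX3CL1 replicate 1. Hsp90aa1 shares 38.0% of its 100-base exon stretches with other genes, mostly Gm12346, while Hsp90ab1 shares none.

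Hsp90ab1, the constitutive form, had 1731, 1732 and 1669 CPM with CCL26, 2415, 1887 and 1899.8 CPM with CX3CL1 and 2050.2, 2046 and 2028 CPM with BSA. The CCL26 libraries were below all others, and CX3CL1 replicate 1 was above all others. The log2 fold change with CCL26 against BSA was -0.25 (SE 0.116, edgeR adjusted p = 0.832), and -0.25 (SE 0.0261, adjusted p = 8.67e-08) without CX3CL1 replicate 1. The ratio of Hsp90aa1 to Hsp90ab1 per kb was 0.416, 0.416 and 0.378 with CCL26, 0.306, 0.431 and 0.415 with CX3CL1 and 0.452, 0.454 and 0.446 with BSA. All 6 chemokine libraries were below all 3 BSA libraries.

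Hspd1 and Hspe1 encode HSP60 and its lid HSP10, the folding chamber of the mitochondrial matrix, and are transcribed away from each other from a shared promoter on chromosome 1. Hspd1 had 371, 379 and 342 CPM with CCL26, 485, 397 and 385 CPM with CX3CL1 and 373, 402 and 397 CPM with BSA. Hspe1 had 76.1, 77.5 and 81.0 CPM with CCL26, 283, 94.8 and 77.8 CPM with CX3CL1 and 81.4, 90.2 and 91.0 CPM with BSA. The CCL26 and BSA libraries overlapped for Hspd1 and did not for Hspe1, by a narrow margin. Their log2 fold changes with CCL26 against BSA were -0.10 (SE 0.120) for Hspd1 and -0.16 (SE 0.414) for Hspe1, and neither passed (edgeR adjusted p = 0.99996 for both, and 0.121 and 0.128 without CX3CL1 replicate 1).

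Hspe1 was the member that set CX3CL1 replicate 1 furthest above the rest, at 3.38 times the mean of the other 8 libraries, while Hspd1 was at 1.27 times. The ratio of Hspd1 to Hspe1 (in CPM) was 1.72 there and 4.19 to 4.95 in the other 8 libraries. Neither gene was called in any comparison in either fit. Hspd1 shares 23.9% and Hspe1 11.0% of their 100-base exon stretches with other genes, and the 2 genes overlap each other on opposite strands, so without strand a read there could belong to either.

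Short heat shock elements were also found near the starts of 4 other members with a RefSeq window. They are shown, as 30 bases each, so that their inverted GAA pairs can be set beside the single pair of Hspa1a and Hspa1b. Capitals mark the overlapping or single pairs GAANNTTC or TTCNNGAA. Hspe1 is chr1:55088051-55088080 on the plus strand, a stretch that the window of Hspd1 reads on the other strand; Hsph1 is chr5:149636348-149636377 (upstream) and chr5:149636287-149636316 (downstream of the start) on the minus strand; Bag3 is chr7:128523603-128523632 on the plus strand.
Hspe1: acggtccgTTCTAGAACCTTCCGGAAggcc
Hsph1, upstream: tagaatctTTCTCGAAggctcgagaagaag
Hsph1, downstream: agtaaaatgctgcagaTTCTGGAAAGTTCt
Bag3: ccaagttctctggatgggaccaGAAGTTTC
The Hspe1 stretch holds 3 overlapping pairs and the downstream Hsph1 stretch holds 2. Of the 7 members with a window, 6 hold at least 1 pair of either form in any of their 1 or 2 windows, and Dnajb1 holds none. Of all 32851 windows, each taken singly, 15.1% hold one, so the 2 figures are not alike. The 6 are also not separate, as Hspa1a and Hspa1b are near copies and Hspd1 and Hspe1 read the same stretch. The longer element of 3 alternating units was searched on both strands and overlaps the pairs. It is in 0.603% of all windows and in 1 or more windows of Hsph1, Hspd1 and Hspe1. A match in these letters is a description and not a site of binding. Only exact matches were searched, so elements with imperfect units are not counted for any gene.

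By other fits of CCL26 against BSA, DESeq2 called 4 of the 10 (Hspa1a, Hspa1b, Bag3 and Hsp90aa1), against 1.92% of all tested genes, and edgeR with the 6 libraries of the comparison called 6, the same 6 as without CX3CL1 replicate 1, against 19.3%. Counted over the 10 genes, CCL26 libraries did not overlap BSA libraries in 8, of which 2 were higher and 6 lower. Of all tested genes, 16.6% were higher and 16.5% lower in this sense. The median log2 fold change of the 10 was -0.17, against 0.0044 over all tested genes. The summed level of all 10 was 5387, 5469.6 and 5026 CPM with CCL26, 8573, 5952 and 5931 CPM with CX3CL1 and 6625, 6595 and 6515 CPM with BSA. The CCL26 libraries had the lowest sums, since Hspa8, Hsp90ab1 and Hsp90aa1 make up most of each sum.

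CX3CL1 against BSA gave no call among the 10 with all 9 libraries, and 0% of all tested genes were called (edgeR quasi-likelihood test; 1 of the 10 and 405 of all tested genes had an unadjusted p under 0.05; DESeq2 and limma-voom called none of the 10). Without CX3CL1 replicate 1, which leaves 2 CX3CL1 libraries, 2 of the 10 fell, against 0.31% of all tested genes called lower. These were Hspa8, at -0.18 (SE 0.0365, edgeR adjusted p = 0.032), and Hsp90aa1, at -0.20 (SE 0.0436, edgeR adjusted p = 0.0411). Both calls were lost when any of BSA replicates 1 to 3, CX3CL1 replicate 2 or CX3CL1 replicate 3 was left out as well (a lone CX3CL1 library is then assumed to vary like the other groups), where log2 fold changes ran from -0.19 to -0.17 for Hspa8 and from -0.22 to -0.18 for Hsp90aa1. Hspa8 changed sign with the library: it was 0.16 (SE 0.215, edgeR adjusted p = 0.751) with all 9. CX3CL1 libraries lay below all BSA libraries for Hsph1, Bag3 and Hsp90aa1, 3 of 10, against 6.93% of all tested genes. Without CX3CL1 replicate 1 this held for 6 of 10, with Hspa8, Dnajb1 and Hsp90ab1 added. With 2 CX3CL1 libraries groups separate more easily, and no share over all tested genes is given for that case.

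CCL26 against CX3CL1 had 1 of the 10 called with all 9 libraries. Hspa1b was higher with CCL26 by 1.76 (SE 0.240, edgeR adjusted p = 0.0176), and 0.395% of all tested genes were called higher. Hspa1a had 1.52 (SE 0.274, edgeR adjusted p = 0.0718). The call of Hspa1b was lost when any 1 of the 8 libraries other than CX3CL1 replicate 1 was left out, with edgeR adjusted p from 0.0541 to 0.117. Without CX3CL1 replicate 1, Hspa1a (1.78, SE 0.185, edgeR adjusted p = 1.58e-07) and Hspa1b (1.51, SE 0.112, adjusted p = 3.73e-10) were higher, 2 of 10 against 5.47% of all tested genes. Hspa8 (-0.22, edgeR adjusted p = 0.000134), Hsp90aa1 (-0.21, adjusted p = 0.00167) and Hsp90ab1 (-0.14, adjusted p = 0.00146) were lower, 3 of 10 against 4.64%. With all 9 libraries DESeq2 called Hspa1a and Hspa1b, 2 of 10 against 1.96% of all tested genes called in either direction. With the 6 libraries of this comparison edgeR called 0 of 10, against 0.0321% of all tested genes. By that test 2 of the 10 and 622 of all 12466 tested genes had an unadjusted p under 0.05. The groups did not overlap in 8 genes, 3 higher with CCL26, against 12.9% of all tested genes, and 5 lower, against 9.76%. The comparisons share libraries, so their agreement is not separate evidence: CCL26 enters this one and the comparison with BSA, and BSA enters both comparisons above.

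**Figure D3:**
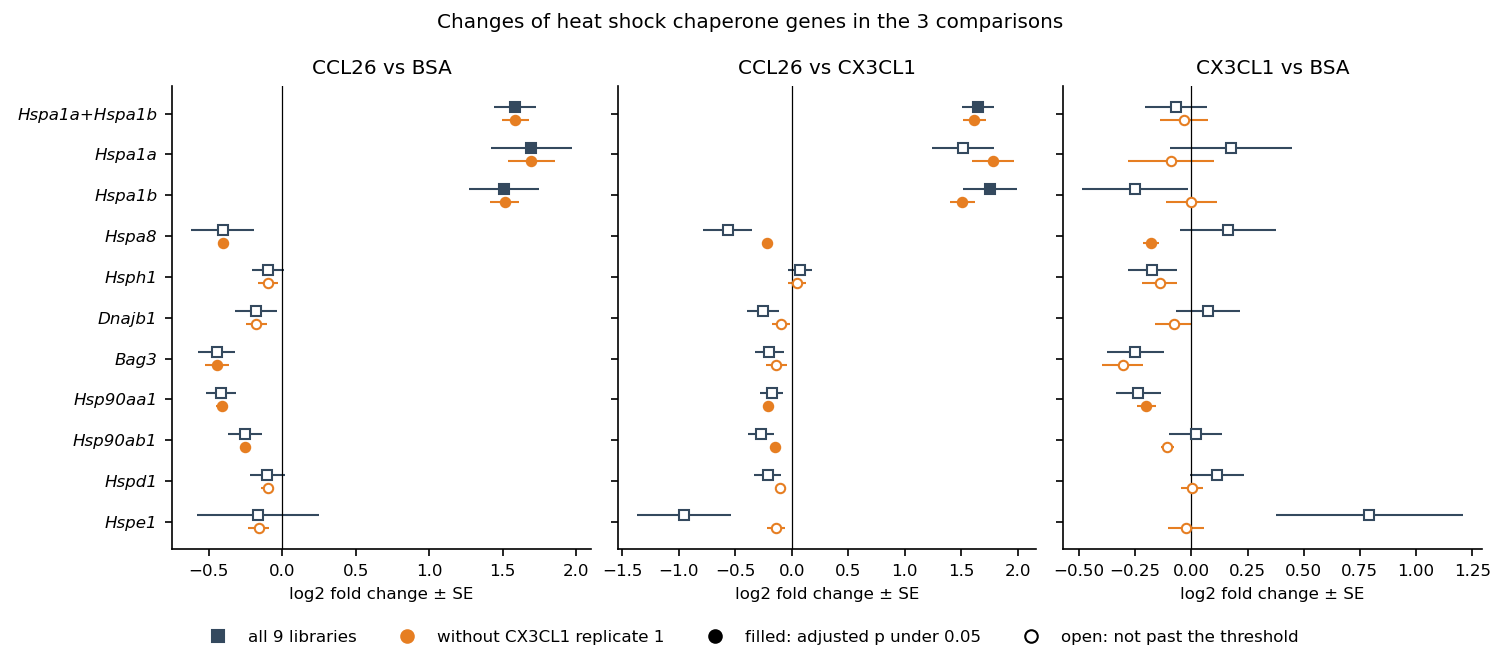
Log2 fold change ± SE of the 10 genes and of the sum of Hspa1a and Hspa1b in CCL26 against BSA, CCL26 against CX3CL1 and CX3CL1 against BSA, from the fit of all 9 libraries (squares) and without CX3CL1 replicate 1 (circles); filled symbols have an edgeR adjusted p under 0.05 and the x axes differ in range. The sum lies at 1.58 and 1.65 in the CCL26 panels and at -0.07 in the third with all 9 libraries.

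The wider chaperone network was read from 113 further genes in 10 lists by role, of which 106 were in the table. Tests covered 104 entries, with Hspa14 counted under both of the gene identifiers that carry its symbol. With all 9 libraries none of the 104 passed in any comparison (edgeR quasi-likelihood test). In CCL26 against BSA, 0.387% of all tested genes were called higher and 0.0465% lower. By the same test, 9, 21 and 3 had an unadjusted p under 0.05 in CCL26 against BSA, CCL26 against CX3CL1 and CX3CL1 against BSA. Of all 12915 tested genes, 792, 1484 and 405 had one, in the same order. DESeq2 called 4 of the 104 in CCL26 against BSA, which were Dnajb5, Dnajb9, Hmox1 and St13, against 1.92% of all tested genes. It called 2 in CCL26 against CX3CL1, which were Hmox1 and St13, against 1.96%, and 0 in CX3CL1 against BSA, against 0%. Limma-voom called 0 in each. The values below are from the fit without CX3CL1 replicate 1, in which 7 of the 104 rose and 29 fell with CCL26 against BSA, where 9.74% and 9.26% of all tested genes did. Leaving out any 1 of the other 8 libraries gave 0 network calls in each comparison (edgeR). In CCL26 against BSA, 6 to 10 of the 104 then had an unadjusted p under 0.05 by edgeR. So had 513 to 792 of the 13239 to 13328 genes tested in those fits. The calls below thus rest on leaving out CX3CL1 replicate 1. The fit of the 6 libraries of CCL26 and BSA, which also leaves it out, called 38 of 103, against 19.3% of all tested genes. The median log2 fold change of the 104 without CX3CL1 replicate 1 was -0.08, against 0.0082 over all tested genes.

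Of the heat shock factors and their regulators, 3 of 7 fell and none rose with CCL26. Hsf1, the gene of the factor itself, had 30.9 ± 4.02 CPM with CCL26 and 26.7 ± 0.184 CPM with BSA (SD, n = 3 each), a log2 fold change of 0.21 (SE 0.101, edgeR adjusted p = 0.164) that did not pass. Those that fell were Vcp (-0.22), an ATPase that extracts proteins for degradation, Ier5 (-0.22), an activator of HSF1, and Hsbp1 (-0.24), which binds heat shock factors.

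Of 6 other HSP70 and HSP110 entries, Hspa4, an HSP110 family gene, fell (-0.17, edgeR adjusted p = 0.00586). The other 5 did not pass, among them Hspa4l, at 38.8 ± 4.17 CPM with CCL26 and 34.6 ± 1.33 CPM with BSA, and the less abundant of the 2 Hspa14 entries, at 4.397 ± 1.19 CPM with CCL26 and 3.62 ± 0.857 CPM with BSA. Among 16 J-domain genes, 3 fell, including Dnaja1 (-0.39, edgeR adjusted p = 7.16e-07), a major cytosolic partner of Hspa8, and Dnajb4 (-0.25), and Dnajb5 rose (0.57, edgeR adjusted p = 0.00418). Dnajb5 had 14.6 ± 0.991 CPM with CCL26 and 9.86 ± 0.990 CPM with BSA. Among 8 genes of nucleotide exchange and of the BAG family, Bag5 rose (0.52) and St13, which stabilises HSP70 bound to ADP, and Bag1 fell (-0.25 and -0.21). Bag2 did not pass, at 2.88 ± 0.895 CPM with CCL26 and 2.47 ± 0.704 CPM with BSA.

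Of 17 HSP90 co-chaperone genes, 6 fell and none rose with CCL26, among them Ptges3, the gene of p23 (-0.29, edgeR adjusted p = 0.000347), Stip1, which bridges HSP70 and HSP90 (-0.18), Cdc37l1, a relative of the kinase co-chaperone Cdc37 (-0.32), and Ahsa1, an activator of the HSP90 ATPase (-0.15). Of 14 genes of the cytosolic chaperonin and prefoldin, 2 fell, Cct5 (-0.17) and Cct2 (-0.12), both subunits of the chaperonin ring that folds actin and tubulin. Pfdn6, of prefoldin, did not pass, at 17.1 ± 1.94 CPM with CCL26 and 14.1 ± 0.235 CPM with BSA. Of the 8 genes listed as small heat shock proteins, 3 were in the table and 2 were tested. These were Hspb6 and Hspb11, at 2.67 and 3.59 CPM with CCL26, and neither passed. Hspb1, Hspb2, Hspb3, Hspb7 and Hspb8 were not in the table, so this list says little about the family.

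The organelle chaperones are given by compartment, and the lists were not tested against each other. Of 14 genes of the endoplasmic reticulum, 8 fell with CCL26 and none rose. Hspa5, the HSP70 of that compartment, had 1457 ± 50.3 CPM with CCL26 and 1886 ± 51.1 CPM with BSA (-0.37, SE 0.0298, edgeR adjusted p = 1.01e-09), and Dnajb9 had 78.8 ± 3.596 CPM with CCL26 and 115 ± 1.44 CPM with BSA (-0.54, SE 0.0602, edgeR adjusted p = 2.64e-07). Hsp90b1, the HSP90 of that compartment, fell too (-0.31). Of 12 mitochondrial genes beyond Hspd1 and Hspe1, 3 rose, none fell and 9 did not pass. Those that rose were the protease genes Lonp1 (0.40, edgeR adjusted p = 9.35e-06) and Htra2 (0.42) and the J-domain gene Dnaja3 (0.30).

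Other genes that heat can induce gave calls in both directions. Of 8 tested, 4 fell with CCL26, which were the heme oxygenase gene Hmox1 (-0.38, edgeR adjusted p = 7.67e-10), Zfand2a (-0.31), Jmjd6 (-0.38) and the ubiquitin gene Ubb (-0.19), and 2 rose, the autophagy receptor gene Sqstm1 (0.18) and Gadd45b (0.22). With CX3CL1 against BSA in the same fit, 3 of the 104 fell and none rose, where 0.31% and 0.0227% of all tested genes did: Hspa5 (-0.24, edgeR adjusted p = 0.00154), Dnajb9 (-0.30, adjusted p = 0.0481) and the stress transcription factor gene Atf3 (-0.29, adjusted p = 0.000565). CCL26 against CX3CL1 had 6 of the 104 higher and 18 lower, where 5.47% and 4.64% of all tested genes were.

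**Figure D4:**
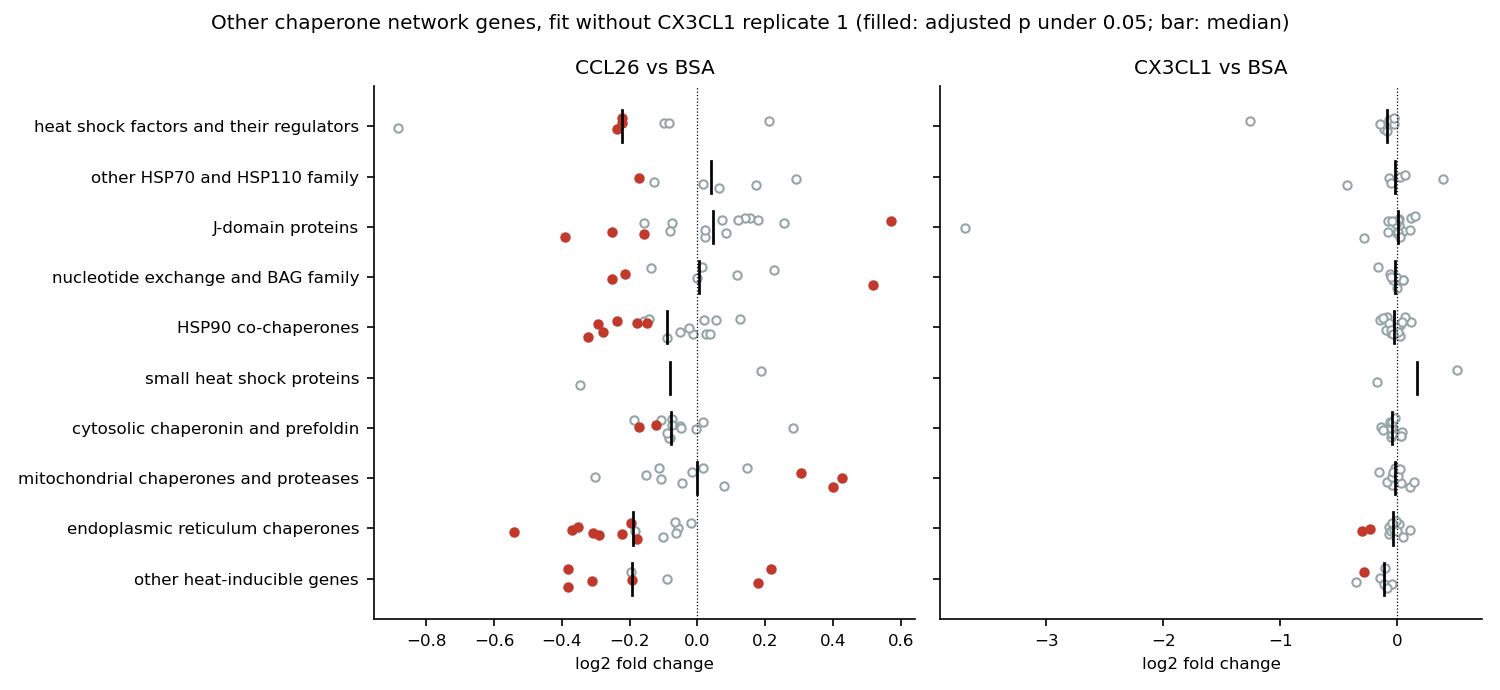
Log2 fold change of the 104 further chaperone network genes, by role, in CCL26 against BSA and CX3CL1 against BSA, from the fit without CX3CL1 replicate 1; filled points have an edgeR adjusted p under 0.05, bars are list medians, the vertical scatter within a row has no meaning and the x axes differ in range. In the endoplasmic reticulum row of the CCL26 panel, 8 of 14 points are filled, all below 0.

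The genes whose profile over the 9 libraries was most like that of the Hspa1a and Hspa1b sum were Icosl, Maff, Gbp2, Ifit3 and Tnfsf15, out of 9046 genes with a mean of at least 5 CPM. Likeness is the root mean square difference of centred log2(CPM + 0.5) values, which was 0.173, 0.192, 0.194, 0.199 and 0.207 for these genes in that order. Icosl, which encodes a costimulatory ligand, had 45.1 ± 0.707 CPM with CCL26, 16.5 ± 0.819 CPM with CX3CL1 and 15.7 ± 1.66 CPM with BSA. Maff, which encodes a small Maf transcription factor, had 37.3 ± 2.08 CPM, 15.0 ± 0.761 CPM and 15.8 ± 1.25 CPM in the same groups. The heat shock chaperones described here were not candidates for this list, so it cannot show whether any of them followed the sum. The genes most like Hsph1 were Ppm1a, Wipi2, Wdr5, Ube2n and Rnf4, with differences of 0.0368 to 0.0524, all of which, like Hsph1, varied little between libraries.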

How the data were processed

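Per the labels' protocols, total RNA of the macrophages was made into libraries with a NEBNext Ultra II kit and sequenced as 150 bp pairs. The authors deposited 1 table of whole-number counts per gene, not normalized. Per the submitters' processing notes the tools were STAR, featureCounts and MultiQC and the builds GRCm38 and mm10; versions, roles and order are not given there. Columns were matched to libraries by the sample code in the labels. Genes were filtered with filterByExpr by group (12915 of 13593 left, 13245 without CX3CL1 replicate 1), scaled by TMM and tested in edgeR 4.0.16 (R 4.3.3, quasi-likelihood F test, group as the only term, all 9 libraries, Benjamini-Hochberg over all tested genes, threshold 0.05). The SE is the absolute log2 fold change over the root of its F statistic. For the sum of Hspa1a and Hspa1b, both genes were replaced by their summed counts and the fit was repeated. Exon lengths, overlaps and shared 100-base stretches came from GENCODE M21, and promoters from RefSeq (GRCm38.p6), where 7 of the 10 genes matched by symbol. Named network genes are up to 3 per role list with the smallest p in CCL26 against BSA with all 9 libraries. Hsbp1, Ahsa1, Bag1, Ubb, Sqstm1, Gadd45b and Atf3 were named after their values were seen. The most like genes were the 5 of smallest difference outside the heat shock chaperones described here. The 10 genes, the lists and the tests were chosen with earlier results of these data known. Chi-square per degree of freedom between replicates was 284 and 336 for CX3CL1 replicate 1 and 3.91 to 8.65 for the other 7 pairs, so no library was counted as a duplicate. Alternatives were other scalings, filters, thresholds, DESeq2 1.42.0, limma-voom (limma 3.58.1), a replicate block and leave-outs. Scripts were tested on simulated counts. No column was left without a library. Figures used matplotlib 3.10.9 (Python 3.11.15).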

Additional observations from a re-analysis of the deposited data

How the results depend on the processing

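For CCL26 against BSA, the sum of Hspa1a and Hspa1b kept its direction and its call in all 28 alternatives run, with log2 fold changes of 1.48 to 1.67. The count of the 10 genes called was 0 at a threshold of 0.01, 1 with upper quartile scaling, 4 with DESeq2 and 6 with the 6 libraries of the comparison, and 0 to 6 over the leave-outs. Against CX3CL1, it was 0 at a threshold of 0.01, 2 at 0.1, 2 with DESeq2 and with limma-voom, 0 with 6 libraries, and 0 to 5 over the leave-outs; there the sum missed the threshold once, with 6 libraries (1.65, edgeR adjusted p = 0.06). For CX3CL1 against BSA the count was 0 to 4 over the leave-outs. Network counts for CCL26 against BSA were 1 at a threshold of 0.1, 4 with DESeq2, 38 with 6 libraries and 0 to 37 over the leave-outs; for CCL26 against CX3CL1 2 with DESeq2 and 0 to 25 over the leave-outs; for CX3CL1 against BSA 0 to 7. Shares of all tested genes called are not given beside these counts. In CCL26 against BSA they were 0.387% higher and 0.0465% lower with all 9 libraries (edgeR). Without CX3CL1 replicate 1 they were 9.74% and 9.26%. The counts alone therefore do not show a change particular to the chaperones. Same-numbered libraries deviated from their group means with r from -0.200 to 0.150, and 1 of 9 pairs was over 0.1. Differently numbered libraries ran from -0.230 to 0.222. CX3CL1 replicate 1 enters the mean of its group, so this check shows no pairing by replicate number but cannot exclude it. With the replicate block the 10 genes gave 0 calls in CCL26 against BSA and 0 against CX3CL1. By that edgeR test 4 and 3 of them had an unadjusted p under 0.05, as had 632 and 1045 of all 12915 tested genes. With the block and without CX3CL1 replicate 1, the 10 genes gave 6 and 5 calls and the network 36 and 22. Of all 13245 tested genes, 4005 and 2825 then had an unadjusted p under 0.05 (edgeR). In CX3CL1 against BSA the 10 genes gave 0 calls and the network 2 in that fit. There 4 of the 10 and 908 of all tested genes had an unadjusted p under 0.05 (edgeR). The edgeR adjusted p was 0.0681 for Hspa8 and 0.069 for Hsp90aa1. In that fit, signs opposite to those with all 9 libraries were found for CX3CL1 against BSA in Hspa1a (-0.0376), Hspa8 (-0.1675), Dnajb1 (-0.0638), Hsp90ab1 (-0.1022), Hspd1 (-0.0072) and Hspe1 (-0.0597). Over the leave-outs, log2 fold changes of CX3CL1 against BSA that took both signs ran from -0.4186 to 0.4041 for Hspa1a, -0.4014 to 0.0471 for Hspa1b, -0.1599 to 0.0921 for the sum, -0.1913 to 0.3076 for Hspa8, -0.0983 to 0.1494 for Dnajb1, -0.1135 to 0.0764 for Hsp90ab1, -0.0305 to 0.1732 for Hspd1 and -0.1692 to 1.1057 for Hspe1, and for CCL26 against CX3CL1 from -1.2673 to 0.0099 for Hspe1. The cause was not tested. No scaling moved the median of all genes by over 0.1. Hspa1a and Hspa1b had 156 to 822 and 135 to 1065 counts per library and the other 8 genes more in most libraries, so counting error limits the pair most.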
